A study of Rattus norvegicus with 24 samples.

Results

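The comparison set the left ventricle 3 days after complete transection of the spinal cord against the left ventricle after sham surgery. It used 12 of the 24 libraries of the series directly, 6 from each group, and the fit took its estimate of spread from all 24. The libraries were chosen by their labelled columns, and each gene ID of the count table, which its label describes as protein-coding genes, was used once. Of 23098 gene IDs, 15065 had enough counts to be tested.

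All rats were male Wistar rats, and the tissue was the free wall of the left ventricle at mid-ventricular level, flash frozen. In the 3 day group the cord had been cut through completely in its high thoracic part, and hearts were collected 3 days after surgery. In the sham group only the dura was opened in that part, with no injury to the cord, and was collected 7 days after surgery. The groups therefore differ in the time since surgery as well as in the injury, and these cannot be told apart. The labels give neither the age of the rats nor a rat for each library. Where libraries share a rat, a p-value reflects only sample-to-sample spread, which may be technical. The libraries of the 3 day group carry the numbers 57 to 62 and those of sham 63 to 68, in a single run of numbers, whereas the other groups carry 77 to 88. Within that run the groups do not interleave, so the order of the numbers and the group cannot be told apart.

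The heart receives sympathetic nerves whose spinal neurons lie in the upper thoracic cord and are driven by pathways descending from the brainstem. A complete high thoracic transection cuts those pathways to the part of the cord below it. The vagus nerve, which carries the parasympathetic supply, leaves the brainstem and does not run in the cord. The ventricular wall holds cardiomyocytes, which contribute most of its mass, together with fibroblasts, endothelial cells, mural cells and resident immune cells. RNA from whole tissue is a sum over all of them.

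The count table lists genes by Ensembl ID without names. The RefSeq gene table used for names (assembly GRCr8) held an Ensembl ID in 0 rows, so 0 of the 23098 IDs were matched. No gene name, sequence, coordinate or check of tissue markers is therefore given here, and genes are described in groups by direction, size and level. IDs are printed for 2 genes that rose and 2 that fell.

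Depth ranged from 16756399 to 48966088 counts in the 3 day libraries and from 27097306 to 70340174 in sham. The difference in mean depth was not called (exact permutation p = 0.132, adjusted p = 0.23 over 5 library-level tests, two-sided), nor was that in genes detected, with 16087 to 17476 genes at 3 days and 16840 to 17782 in sham (exact permutation p = 0.169, adjusted p = 0.23). The 10 most abundant genes took 30.9 to 40.1% of the counts at 3 days and 32.5 to 35.8% in sham (exact permutation p = 0.842, adjusted p = 0.842). In each of the 12 libraries 58.1 to 60.0% of gene counts between 1 and 200 were even numbers, in both groups alike. What this does to the effective depth was not tested.

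The 2 groups separated on the first principal component of the 12 libraries, which held 29.4% of the variance. Scores lay between 6.87 and 55.2 in the 3 day libraries and between -30.7 and -15.6 in sham, with no overlap. The difference in means was 45.9 (exact permutation p = 0.00216, adjusted p = 0.0108, two-sided), and this p is the smallest that 6 against 6 allows. One library stood apart. The second component held 15.5% of the variance, and on it 3 day replicate 5 scored 45.5, the other 5 libraries of its group scored -22.2 to -13.4, and sham scored 2.47 to 12.4. The group means did not differ by test on that component (exact permutation p = 0.184, adjusted p = 0.23). Replicate 5 was also the shallowest of the 12 libraries, with 16756399 counts. Its mean correlation with the other libraries of its group was 0.971 on log2 CPM, where the others had 0.978 to 0.982. With all 12 libraries thinned to its depth the value was 0.974, still the lowest, against 0.979 to 0.982. The rule that chose these libraries had already named replicate 5 for its poor correlation with its group. The counts of calls, their split by level and the values of the printed genes are therefore given with and without this library.

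**Figure D1:**
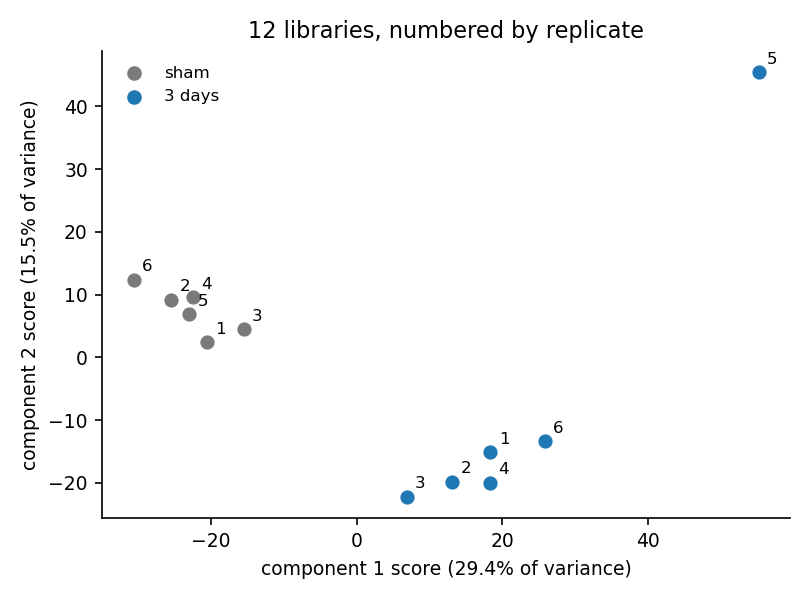
Scores of the 12 libraries on the first (x axis) and second (y axis) principal component of log2 CPM, each point 1 library with its replicate number, sham in grey and 3 days in blue. The groups do not overlap on the first component, and 3 day replicate 5 lies alone at 55.2 and 45.5.

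Transcripts of 1338 genes had risen and those of 1294 had fallen by 3 days, 17.5% of the 15065 tested (8.88% higher and 8.59% lower; edgeR quasi-likelihood test, adjusted p under 0.05). The rises and falls were similar in number and in size. The scaling centres the bulk of genes near no change (median log2 fold change 0.00755 over all tested genes), which favours similar numbers. The median change was 1.39-fold among the genes that rose and 1.35-fold among those that fell, and 64.9% of all called changes were of 1.5-fold or less. A rise of over 2-fold was called in 209 genes (1.39%) and a fall of over 2-fold in 149 (0.989%), in all 2.38% of tested genes. A change of over 4-fold was called in 21 and 19 genes. In tissue RNA, fewer cells of a type and less RNA per cell cannot be told apart.

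Without 3 day replicate 5, the same test called 1140 genes higher (7.49%) and 1133 lower (7.44%), 14.9% of the 15230 genes then tested. Of the genes called with all libraries, 1043 rose and 1040 fell in both fits. Another 295 rises and 254 falls were called only with the library, while 97 rises and 93 falls were called only without it. No gene was called in opposite directions. Rises of over 2-fold then numbered 185 (1.21%) and falls 145 (0.952%), and changes of over 4-fold 24 and 16. In fits of the 3 day and sham libraries alone, which also differ in filter and scaling, leaving it out raised the total, from 2869 to 2978.

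The genes in which the library mattered were near the threshold. The 295 genes called higher only with it had a median adjusted p of 0.0344 with it and 0.0737 without it. In these genes replicate 5 lay a median of 0.59 above the sham mean in log2 CPM, where the other 5 libraries lay 0.29 above. In the 1043 genes called higher in both fits the medians were 0.50 and 0.49. The same held among falls, with medians of -0.52 for replicate 5 and -0.28 for the others in the 254 genes called only with it, and of -0.50 and -0.46 in the 1040 called in both. These groups were chosen by the calls themselves, so their medians are a description.

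Complete separation of the groups was less common than a call. In 627 genes every 3 day library was above every sham library, and in 718 every one was below, together 8.93% of those tested (4.16% and 4.77%). Of these, 564 (3.74% of tested genes) and 637 (4.23%) were also called. Among called changes of over 2-fold, the groups did not overlap in 105 of the 209 rises and 89 of the 149 falls. Among smaller called changes they did not overlap in 459 of 1129 rises and 548 of 1145 falls. Without replicate 5 the groups of 5 and 6 libraries were separate in 838 genes for rises (5.5%) and 869 for falls (5.71%), 11.2% of those tested, a number that also grows because fewer libraries have to be separate.

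Most rises of over 2-fold, and a large part of such falls, were changes of scarce RNAs. Among the 3458 tested genes with a mean log2 CPM under 1, 192 rose and 136 fell, 9.49% of them, and the median called change was 2.17-fold. Those genes hold 124 of the 209 rises of over 2-fold and 72 of the 149 falls. Among the 5077 genes between 1 and 4, 503 rose and 412 fell (18.0%), with a median of 1.45-fold. Among the 5601 genes between 4 and 7, 538 rose and 651 fell (21.2%), with a median of 1.26-fold, and among the 870 between 7 and 10, 100 rose and 93 fell (22.2%), also with a median of 1.26-fold. Scarce RNAs were measured least precisely, with a median standard error of the log2 fold change of 0.33 in the scarcest group, 0.08 between 7 and 10, and 0.10 above 10. In the scarcest group small changes are therefore harder to call, which can raise its median called change. Without 3 day replicate 5 the shares called were 7.64% under 1, 15.3% between 1 and 4, 18.8% in each of the next 2 groups, and 10.2% above 10. The scarcest group then held 106 of the 185 rises and 72 of the 145 falls of over 2-fold.

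Among the few most abundant RNAs of the ventricle the share called was lower than among all genes, and the difference was not tested. The 59 genes with a mean log2 CPM over 10 took 46.9% of the scaled counts at 3 days and 46.7% in sham. Of them 5 rose and 2 fell, or 11.9% against 17.5% of all genes, with a median called change of 1.23-fold. One of the 5 was higher by 2.30-fold, the largest called change among the 100 most abundant genes too. Of those 100 genes, 6 rose and 7 fell (13%). The 1338 genes that rose took 5.23 to 5.68% of the scaled counts in the sham libraries and 6.40 to 7.73% at 3 days. Those that fell took 6.77 to 7.81% in sham and 4.80 to 5.91% at 3 days. Both shares were chosen by the calls and describe their size.

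**Figure D2:**
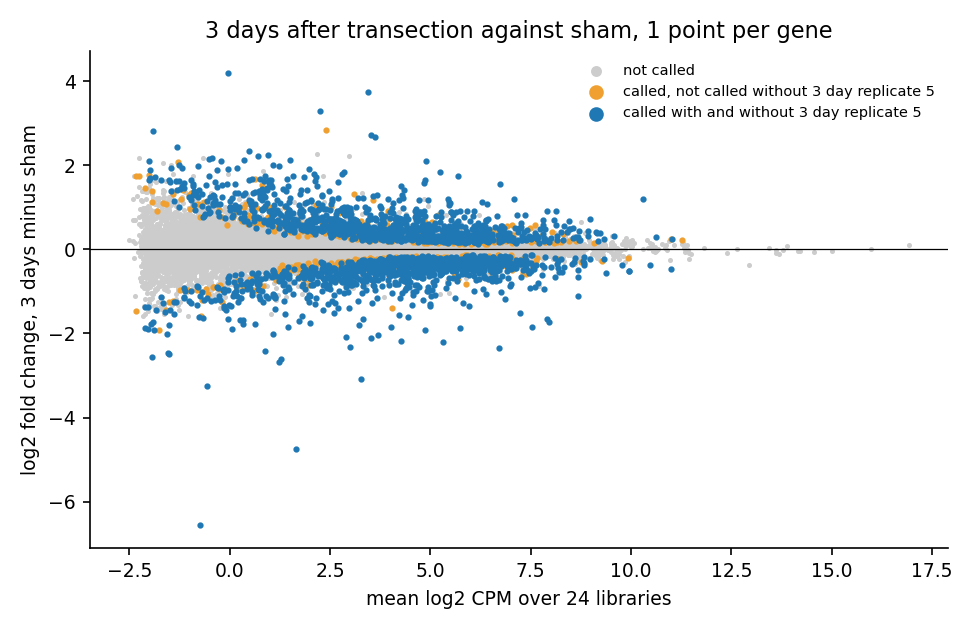
Log2 fold change of 3 days minus sham (y axis) against mean log2 CPM over the 24 libraries (x axis), 1 point per tested gene; blue points were called with and without 3 day replicate 5, orange points only with it, grey points not called. Changes of over 2-fold were most numerous at low levels. Genes with a mean log2 CPM under 1 held 124 of the 209 rises and 72 of the 149 falls of that size. Blue points lie on both sides of 0 up to a mean log2 CPM of about 10.

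Most genes that were not called had a 95% interval narrow enough to exclude a change of over 2-fold. Smaller changes, such as the median called change of 1.37-fold, are not excluded by such an interval. Of the 12433 genes not called, 10643 (85.6%) had a 95% interval of the fold change that stayed within 2-fold in either direction. The other 1790 had intervals that reached past 2-fold, so these data do not exclude a change of that size there. Without 3 day replicate 5 the interval stayed within 2-fold in 10876 of 12957 genes not called (83.9%). The filter also shapes the scarce end. Among the tested genes, 111 reached the level the filter asks for (0.254 CPM) in no sham library. Of these, 25 were called higher, beside 8.88% of all tested genes. Another 62 reached that level in no 3 day library, and 14 of these were called lower, beside 8.59% of all tested genes. Such genes passed through the libraries in which they were high, so these counts are a description. A further 1 ID had at least 1 count in each sham library and none in any 3 day library, and no ID showed the opposite.

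The gene with the largest rise among those that qualified for printing was ENSRNOG00000019183. Qualifying meant a call with and without 3 day replicate 5 and a mean log2 CPM of at least 1, which 897 genes met with a rise and 931 with a fall. Its level in the sham libraries was 2.97, 1.79, 2.98, 1.73, 1.90 and 2.52 CPM in order of replicate. At 3 days it was 8.06, 18.1, 27.8, 78.6, 14.7 and 39.8 CPM. Every 3 day library was above every sham library, with a range of 9.76-fold within the 3 day group and 1.72-fold within sham. The means were 31.2 ± 25.7 and 2.32 ± 0.583 CPM (SD, n = 6). The fitted log2 fold change was 3.74 (SE 0.485, edgeR adjusted p = 1.37e-05), or 13.4-fold. Without replicate 5, which held 14.7 CPM, the log2 fold change was 3.88 (adjusted p = 1.51e-05).

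ENSRNOG00000019183 was also called higher than sham at 1 day, and was not called at 12 weeks. It was chosen for its rise at 3 days, so comparisons of other times with 3 days reuse the values that chose it and lean towards a peak there. The same holds, in its own direction, for the other 3 printed genes. At 1 day its mean was 9.23 ± 5.62 CPM, with libraries from 3.90 to 18.0 CPM, and it was higher than in sham (log2 fold change 1.98, edgeR adjusted p = 0.00308, in a comparison that called 24% of genes). The direct comparison of 3 days with 1 day gave a log2 fold change of 1.76 (SE 0.435, edgeR adjusted p = 0.029, 2.74% of genes called). That call was lost without 3 day replicate 4, the highest library (1.23, adjusted p = 0.116), and without 3 day replicate 6 (1.67, adjusted p = 0.0547), and was 1.90 without replicate 5 (adjusted p = 0.0177). At 12 weeks its mean was 0.969 ± 0.692 CPM, lower than at 3 days (log2 fold change -4.94, edgeR adjusted p = 1.08e-06, 31.3% of genes called; -5.08 without replicate 5, adjusted p = 1.27e-06). It was not called against sham at 12 weeks (-1.21, adjusted p = 0.115, 22.1% of genes called). The 1 day and 12 week libraries come from the other run of library numbers, which cannot be told apart from time in these comparisons. The comparisons with sham share the sham libraries.

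The second printed rise was that of ENSRNOG00000019500, and its size and call leaned on 1 library. Its level in sham was 0.28, 0.567, 0.413, 0.185, 0.353 and 0.226 CPM, from 6 to 32 counts. At 3 days it was 1.67, 1.11, 14.3, 0.72, 1.25 and 1.59 CPM, from 20 to 440 counts. Each 3 day library was above the highest sham library, but replicate 3 held 14.3 CPM where no other exceeded 1.67. The log2 fold change was 3.28 (SE 1.12, edgeR adjusted p = 0.0437), and 3.42 without replicate 5 (adjusted p = 0.0476). Without replicate 3 it was 1.84 and not called (adjusted p = 0.265). It was also not called when any 1 of the 6 sham libraries was left out (adjusted p 0.0657 to 0.0796) or with limma-voom (2.40, adjusted p = 0.302, and 2.34, adjusted p = 0.288, with sample weights), and DESeq2 gave it no adjusted p. It was called with a smaller adjusted p in the 12 libraries alone (3.29, edgeR adjusted p = 0.00568) and with the replicate block there (2.62, adjusted p = 0.00938). At 1 day a single library likewise carried most of the mean, with 72.2 CPM in replicate 4 and 0.567 to 3.38 CPM in the others. That library also carried the gene past the level asked for printing, since its mean log2 CPM was 2.25 over 24 libraries and 0.74 without it. The 1 day comparison was called (5.29, edgeR adjusted p = 0.00138), while the direct comparisons of 3 days with 1 day (-2.01, adjusted p = 0.243) and of 12 weeks with 3 days (-2.34, adjusted p = 0.0999) were not, with or without 3 day replicate 5 (without it -1.86, adjusted p = 0.297, and -2.48, adjusted p = 0.0969).

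Among the genes that qualified for printing, the largest fall was that of ENSRNOG00000020338. The largest called fall of all was 94.3-fold, in a gene with a mean log2 CPM under 1. The level of ENSRNOG00000020338 in sham was 7.09, 8.28, 8.50, 7.38, 16.8 and 10.3 CPM. At 3 days it was 0.262, 0.206, 0.422, 0.90, 0.312 and 0.0634 CPM. The groups lay far apart, the highest 3 day library being under the lowest sham library by a wide margin. The 3 day values rest on 2 to 30 counts per library and the sham values on 239 to 617. The means were 9.72 ± 3.63 CPM in sham and 0.361 ± 0.289 CPM at 3 days (SD, n = 6), and the fitted log2 difference was -4.75 (SE 0.574, edgeR adjusted p = 5.86e-06), or 26.9-fold lower. Without replicate 5 it was -4.73 (adjusted p = 2.35e-05), and with any other library of these groups left out it lay between -5.29 and -4.52.

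ENSRNOG00000020338 was low at the other times after transection too, with means of 0.802 ± 0.678 CPM at 1 day and 1.28 ± 0.973 CPM at 12 weeks. Against sham the log2 fold changes were -3.58 for 1 day (edgeR adjusted p = 1.96e-05) and -2.88 for 12 weeks (adjusted p = 0.000206). The direct comparison of 3 days with 1 day was not called (-1.17, SE 0.601, adjusted p = 0.315; -1.15 without replicate 5, adjusted p = 0.334). The level at 12 weeks was higher than at 3 days (1.87, edgeR adjusted p = 0.0194, and 1.85, adjusted p = 0.0303, without replicate 5), a call that limma-voom did not make (1.81, adjusted p = 0.103). Its mean was lowest at 3 days, although 1 and 3 days were not told apart.

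ENSRNOG00000064002 had the second largest fall among the genes that qualified, and of the 4 printed genes the narrowest range within the 3 day group. Sham libraries held 16.7, 24.9, 28.2, 18.4, 20.1 and 32.0 CPM, and 3 day libraries 1.70, 3.21, 3.80, 2.25, 2.06 and 3.23 CPM. The range was 1.92-fold within sham and 2.23-fold within the 3 day group, and the groups were separate. The mean was 23.4 ± 6.00 CPM in sham and 2.71 ± 0.82 CPM at 3 days (SD, n = 6). The log2 fold change was -3.09 (SE 0.27, edgeR adjusted p = 8.46e-08), or 8.54-fold lower, and -3.04 without replicate 5 (adjusted p = 5.26e-07). At 1 day its level was 3.46 ± 1.45 CPM, not told apart from 3 days (3 days minus 1 day -0.34, SE 0.267, edgeR adjusted p = 0.571; -0.28 without replicate 5, adjusted p = 0.644). At 12 weeks it was 8.63 ± 2.74 CPM, higher than at 3 days (1.66, adjusted p = 5.74e-05; 1.61 without replicate 5, adjusted p = 0.000191), and also lower than sham (-1.43, adjusted p = 0.000218). Of the 4 printed genes, it and ENSRNOG00000020338 were called lower than sham at each of the 3 times.

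**Figure D3:**
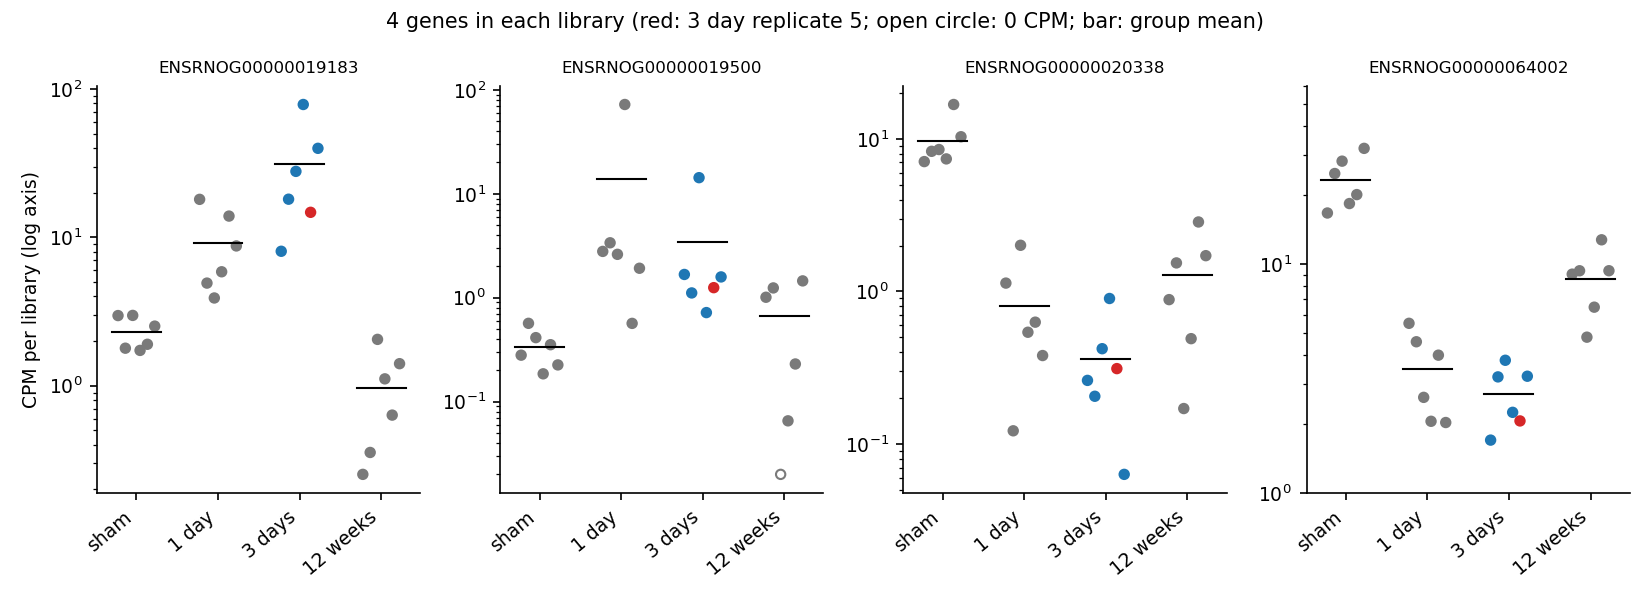
CPM of the 4 printed genes in each of the 24 libraries (y axis, logarithmic, a separate scale per gene) by group (x axis), with the group mean as a bar, 3 day libraries in blue with replicate 5 in red, and an open circle at the foot of the axis for a library at 0 CPM. All 3 day libraries lie outside the sham range in each gene, and replicate 3 alone, at 14.3 CPM, lies far above the rest of its group in ENSRNOG00000019500.

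The 3 day libraries differed in how far they followed the response of their group. Each library was left out in turn, genes were called without it, and its own values for those genes were then read, so that it had no part in choosing them. In genes called higher without it, a 3 day library lay a median of 0.28 to 0.48 above the mean of the sham libraries in log2 CPM, and 88.3 to 98.8% of those genes were on the side of the rest of its group. In genes called lower without it, the medians were -0.47 to -0.27 and the shares 90.9 to 98.3%. The same reading of a left-out sham library gave medians of -0.02 to 0.08 and -0.10 to 0.07. Its shares of genes on the side of the 3 day libraries were 44.45 to 66.75% for rises and 33.91 to 75.53% for falls. The sham libraries served both to call the genes and as the level read against, which favours agreement in the 3 day libraries.

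Replicate 5 showed a response of full size in this reading. Genes called higher without it lay a median of 0.45 above sham in it, against 0.48 in the other 5 libraries, and genes called lower lay at -0.47 against -0.44. Its agreement was broad but, like that of replicate 3, less even than in the other 3 day libraries. In replicate 5, 88.3% of the rises and 92.3% of the falls were on the same side. Replicate 3 had 89.7% and 90.9%, and replicates 1, 2, 4 and 6 had 94.9 to 98.8%. Replicate 3 had the weakest response, with medians of 0.28 and -0.27 against 0.48 and -0.47 in the others. In these readings the other libraries had a part in calling the genes, which favours larger medians in them. When each was itself left out, the other 3 day libraries had medians of 0.38 to 0.48 and -0.47 to -0.39. Only 64.6% of the rises and 66.7% of the falls in replicate 3 lay beyond every sham library. Replicate 5 had 74.3 and 79.6%, and replicate 4 had 86.1 and 84.3%. A left-out sham library lay beyond the other sham libraries in 14.7 to 28.9% of rises and 10.05 to 33.4% of falls. Leaving out replicate 3 raised the number of calls, to 1423 higher and 1302 lower, while leaving out any other 3 day library lowered it, to between 1120 and 1201 higher and between 1066 and 1169 lower.

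**Figure D4:**
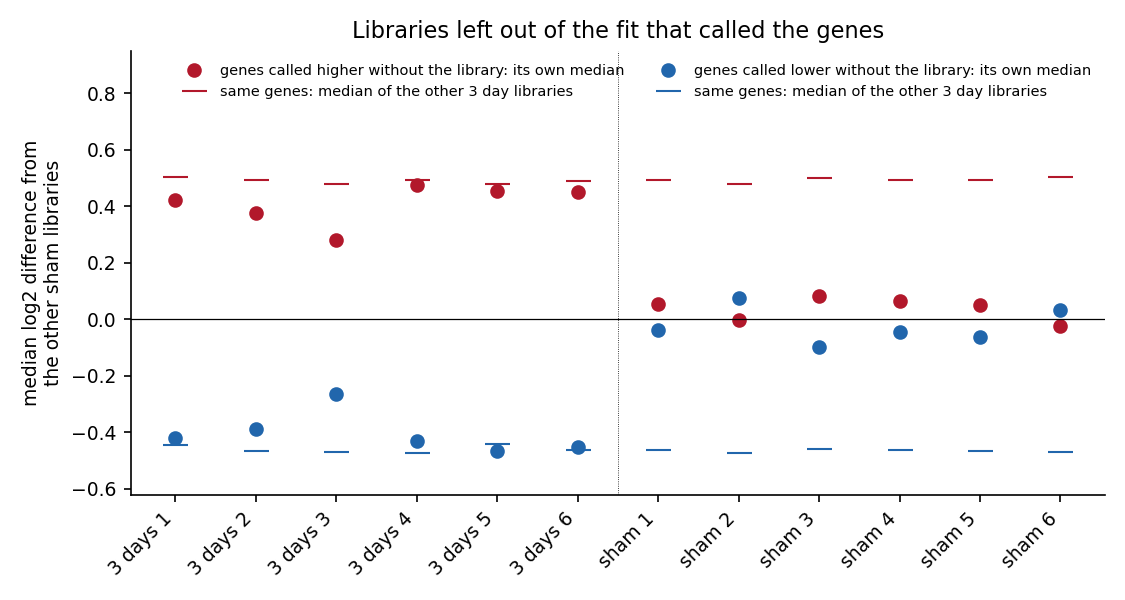
Median log2 CPM difference from the other sham libraries (y axis) in each of the 12 libraries (x axis), for genes called higher (red) or lower (blue) in the fit without that library; dots are the left-out library and dashes the other 3 day libraries. The 3 day libraries lie near their dashes, replicate 3 least so at 0.28 and -0.27, and the sham libraries lie within 0.10 of 0.

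Replicate 5 stood alone in more genes than any other library. After thinning to equal depth, it lay apart among the 12 libraries, by more than 2-fold from the next, in 13 genes on the high side and 44 on the low side, of 11607 genes with a mean log2 CPM of at least 1. Any other library stood alone in 0 to 11 genes on the high side and 1 to 7 on the low side. Of all 11607 genes, 19.9% were called with all libraries, with 9.98% of them called lower. Without replicate 5, 14.9% of all tested genes, at any level, were called, 7.49% higher and 7.44% lower. Of the 13 genes, 5 were called higher with all libraries and 3 without it. Of the 44, 11 were called with all libraries, 10 of them lower, and 10 without it, 9 of them lower. Because its own values enter the calls with all libraries, these counts are a description.

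Replicate 5 also held the highest value of its group in more genes than any other library. This was so in 27% of all tested genes, in 40.2% of the 1129 genes called higher by up to 2-fold and in 32.1% of the 209 called higher by over 2-fold. In each of those sets no other 3 day library led in more than 19.1%. Its low depth goes with more counting error, and the part of depth in these shares was not tested. A single library held over 50% of the summed CPM of the group in 6 of the 209 genes (2.87%). Replicate 3 did so in 3 of them, replicate 5 in 2 and replicate 2 in 1. Over all 15065 tested genes this was so in 54 (0.358%), with replicate 3 in 18 and replicate 5 in 16. The difference in share was not tested.

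The spread between libraries was wider at 3 days than in sham. The biological coefficient of variation was 0.177 in the 3 day libraries and 0.124 in sham, and it was 0.155 at 3 days without replicate 5. The SD of log2 CPM was larger at 3 days than in sham in 71.1% of tested genes, and in 60.2% without replicate 5. The medians of that SD were 0.212 and 0.156, and 0.178 without it. The libraries of the 3 day group were thus less alike than those of sham with or without the library that stood apart, and this difference in spread was described, not tested.

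More than 60% of the calls were made whichever library was left out. When each of the 12 libraries was left out in turn, 823 of the 1338 rises (61.5%) and 820 of the 1294 falls (63.4%) were called in all 12 fits in the same direction. Among changes of over 2-fold the counts were 157 of 209 rises and 119 of 149 falls. Genes called in all 12 fits had a median rise of 1.45-fold and a median fall of 1.41-fold, against 1.29-fold and 1.25-fold for those lost in some fit. Among changes of over 2-fold the medians were close, 2.54-fold for rises kept and 2.58-fold for rises lost, and 2.47-fold and 2.49-fold for falls. Over these fits the number of rises was 1059 to 1423 and the number of falls 985 to 1302, with the lowest pair without sham replicate 2. The number called also shrinks because each such fit has fewer libraries.

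**Figure D5:**
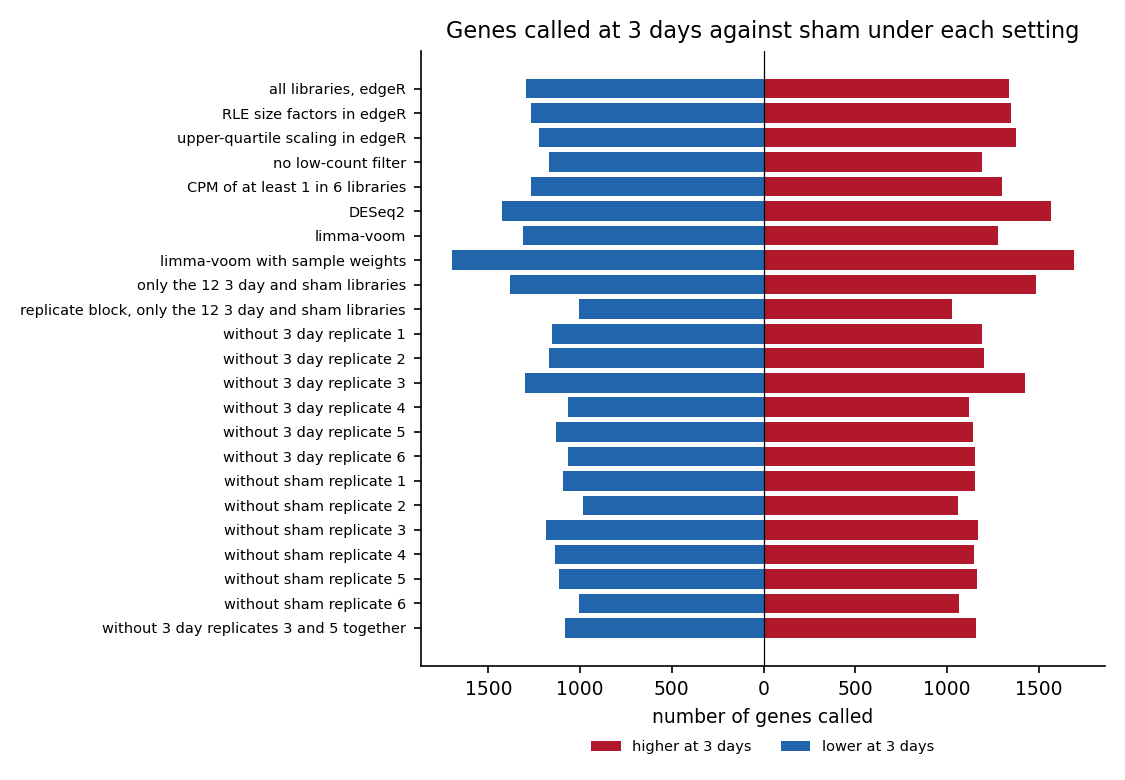
Number of genes called higher (red, to the right) and lower (blue, to the left) at 3 days against sham, 1 bar pair for each way of scaling, filtering, testing or leaving out libraries (y axis). Rises number 1025 to 1691 and falls 985 to 1701, and the red and blue bars have similar lengths in each setting. Each setting scales the libraries so that the bulk of genes lies near no change.

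Some genes stood on several lines of the table. These are 781 IDs on up to 22 identical lines each, of which 226 were tested, each once. Of those, 44 (19.5%) were called, beside 17.5% of all tested genes, and the difference was not tested.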

How the data were processed

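RNA was measured in the left ventricle by sequencing. Per the labels' protocols, libraries were strand-specific, made from total RNA after removal of ribosomal RNA, and read as paired ends. The authors deposited raw counts per gene for all 24 libraries, as whole numbers with no scaling. The tools named are STAR 2.7.11a, featureCounts 2.0.6 and FastQC 0.12.1, with build mRatBN7.2, per the submitters' processing notes. How reads shared by several genes were counted, the strand setting and the annotation release were not given in the sources used here, so overlapping genes and near-identical copies may share reads.

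The table has 26166 lines for 23098 gene IDs, and repeated lines of an ID were identical and used once. Counts were 0 throughout for 2772 IDs, and 5261 were left out by the filter. In R 4.3.3 with edgeR 4.0.16, genes were filtered by filterByExpr, libraries were scaled by TMM, and all 24 libraries entered 1 quasi-likelihood fit by group with 20 residual degrees of freedom. P-values are two-sided and adjusted by Benjamini-Hochberg over all tested genes, and a gene is called at an adjusted p under 0.05. Fold changes are on the log2 scale of the fit, and CPM uses TMM-scaled library sizes. Standard errors are the log2 fold change divided by the root of F. Log2 CPM used a prior count of 2. Library-level values were compared by exact permutation over 924 arrangements (Python 3.11.15).

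Alternatives were other scalings, filters and tests (DESeq2 1.42.0, limma 3.58.1), the 12 libraries alone, a replicate block, and leaving out each library. The fits without replicates 3 and 5 together, and each setting without replicate 5, were added after the data were seen, as were the readings of left-out libraries, thinning, libraries standing alone, levels and leading libraries. The members and lists were chosen with earlier results of these data known. The rule for printed genes took the 2 largest rises and falls among genes called with and without 3 day replicate 5, with a mean log2 CPM of at least 1 over all 24 libraries. The rule's gene lists need symbols and were not used.

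Over the 30 pairs of libraries within the 2 groups, chi-square per degree of freedom was 12.8 to 110.5, so no library repeated another within sampling noise. The steps were tested on simulated counts for 3 days against sham.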

Additional observations from a re-analysis of the deposited data

Results flagged for a closer look

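In 28 groups of 6 values looked at, 6 had a library far from the others of its group. The limit used is passed by chance in about 1 in 20 groups, but that rate is no yardstick here. Replicate 5 of the 3 day group had been named beforehand for its poor correlation, and the printed genes were chosen for large changes. Of these, 4 concern 3 day replicate 5 and are not independent of one another. Its mean correlation with its group was 0.971, the lowest of 6, and 0.974 after thinning to equal depth, again the lowest. Its score on the second principal component was 45.5, with the other 5 libraries between -22.2 and -13.4. It stood alone on the low side in 44 genes, where the other 3 day libraries did so in 1 to 7.

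The other 2 concern printed genes. 3 day replicate 3 held 14.3 CPM of ENSRNOG00000019500, with the rest of its group at 0.72 to 1.67 CPM. Sham replicate 5 held 16.8 CPM of ENSRNOG00000020338, with the rest of sham at 7.09 to 10.3 CPM, and without it the log2 fold change at 3 days was -4.52.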

How the results depend on the processing

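The counts of genes called higher and lower at 3 days stayed within 1.5 times their values under each alternative run. With RLE size factors 1350 rose and 1269 fell, and with upper-quartile scaling 1375 and 1226. Without a low-count filter the counts were 1191 and 1170, and with CPM of at least 1 in 6 libraries 1303 and 1268. DESeq2 called 1565 and 1428, limma-voom 1277 and 1311, or 1691 and 1701 when libraries were weighted. The share of the 2632 calls that were also made in the same direction was 99.8% with DESeq2, 92.5% with limma-voom, 90.5% with the 12 libraries alone, 87.5% without a filter and 68.7% with the replicate block. It was 76.0 to 91.0% when 1 library was left out, lowest without sham replicate 2. Without 3 day replicates 3 and 5 together 1158 rose and 1084 fell. Without replicate 5 the total was 1732 to 3245 over the other settings, against 2273. The replicate numbers did not pair the libraries. Deviations of same-numbered libraries from their group means correlated at -0.102 to -0.00138, and 0 of 6 matched their own number best. With the replicate block, in the 12 libraries alone, 1025 genes rose and 1007 fell, against 1487 and 1382 in those libraries without it. The first component separated the groups in each fit that left out 1 library, with differences of 44.1 to 49.5. The components were recomputed in each of these fits. On the second component the difference was -19.8 to -3.77, smallest without 3 day replicate 5, where the component is a different axis. On the second component of all 12 libraries, the 3 day libraries other than replicate 5 scored -22.2 to -13.4, below sham at 2.47 to 12.4. Depth limits scarce RNAs most, and the injury and the collection time cannot be told apart.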
